A study of Homo sapiens with 120 samples.

Results

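Clastogens, which break chromosomes, and aneugens, which disturb how chromosomes are shared out at cell division, were set against each other by their effect on gene expression after 4 h in TK6, a human B lymphoblastoid cell line. The comparison took the mean effect of methyl methanesulfonate (MMS, 320 µM) and ethyl methanesulfonate (EMS, 4 mM), minus the mean effect of colcemid (COL) and vincristine (VCR). It rests on 24 of the 120 arrays of the series: 3 arrays of each of these treatments and 3 untreated arrays of each chemical's own set, all after 4 h. Every effect is treated minus untreated within a set, in log2 units, so that 1 unit is a 2-fold change, and it was estimated for 14017 genes. The other arrays hold formaldehyde, 24 h and lower doses. Colcemid and vincristine stand at their highest labelled dose, "004 µg/ml" in the titles and 4 µg/ml elsewhere in the labels. Whether those leading zeros stand for decimals is not settled by the labels, so no dose of an aneugen can be matched to a dose of a clastogen. No genotype, strain or further agent is labelled, and the untreated groups carry no named solvent. All cells are of a single cultured line.

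MMS and EMS transfer a methyl or an ethyl group to bases of DNA. Unrepaired alkylated bases stall replication forks and lead to strand breaks, which activate the p53 pathway, and alkylating agents also react with protein thiols and can set off the ATF4 and NRF2 stress responses. Colcemid and vincristine bind tubulin and prevent the assembly of spindle microtubules, so dividing cells halt in mitosis by the spindle checkpoint with unbroken chromosomes. p53 induces CDKN1A, an inhibitor of cyclin-dependent kinases, and through it lowers genes of the G2 and M phases. ATF4 is the transcription factor of the integrated stress response, which answers amino acid shortage, unfolded protein and oxidant stress.

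The promoters of some genes named below hold short elements by which these responses are known to act. Of these, 2 sets are shown because they belong to the most one-sided gene groups of the comparison. Only genes with a match are shown. Other genes with large class differences hold none, among them STC2, CTH and CEBPB for the first element and CENPE, CCNB1 and PSRC1 for the second. The sequences are RefSeq promoter sequences of build GRCh38.p14, read along the gene's own strand from 5′ to 3′. In the first set the capitals mark TGATGNAA or its reverse complement, the core of the element bound by ATF4 and its partners. CHAC1 (chr15:40953236-40953295, plus strand), ATF3 (chr1:212565190-212565249, plus strand) and ASNS (chr7:97872443-97872502, minus strand) are stress response genes that were higher after the clastogens.
CHAC1: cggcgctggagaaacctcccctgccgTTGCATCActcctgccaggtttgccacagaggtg
ATF3: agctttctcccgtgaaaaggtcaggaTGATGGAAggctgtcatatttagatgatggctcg
ASNS: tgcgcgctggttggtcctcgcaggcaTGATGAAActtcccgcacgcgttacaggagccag

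In the second set the capitals mark TTTGAA or its reverse complement, the core of the CHR element through which the DREAM complex represses genes of mitosis. PIF1 (chr15:64825648-64825707, minus strand), ASPM (chr1:197146750-197146809, minus strand), KIF23 (chr15:69414267-69414326, plus strand), DEPDC1 (chr1:68497083-68497142, minus strand) and PLK1 (chr16:23678829-23678888, plus strand) are genes of DNA unwinding, the spindle and cell division that were lower after the clastogens.
PIF1: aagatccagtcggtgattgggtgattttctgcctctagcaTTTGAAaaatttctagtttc
ASPM: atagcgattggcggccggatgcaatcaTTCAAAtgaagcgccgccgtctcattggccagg
KIF23: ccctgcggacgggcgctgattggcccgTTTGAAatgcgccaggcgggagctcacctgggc
DEPDC1: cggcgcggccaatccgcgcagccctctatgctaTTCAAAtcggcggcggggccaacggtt
PLK1: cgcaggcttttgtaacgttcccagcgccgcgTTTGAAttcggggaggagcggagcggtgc

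The class difference was called, at an adjusted p under 0.05 in limma, for 3310 genes, 23.6% of the 14017 tested. Of these, 1525 (10.9%) were higher and 1785 (12.7%) lower after the clastogens than after the aneugens. Nearly all of it came from the clastogen side. The mean effect of MMS and EMS was called for 4687 genes (33.4%; 17.6% higher, 15.9% lower), and the mean effect of colcemid and vincristine for 346 (2.47%). Among the 1525 genes with a higher class difference, 1408 were called in the clastogen mean alone, 7 in the aneugen mean alone, 21 in both with opposite signs, 38 in both with the same sign and 51 in neither. Among the 1785 with a lower one these numbers were 1502, 53, 115, 6 and 109. A change of at least 2-fold was rare, with 18 genes higher and 7 lower. Besides genes described below, the largest downward class differences of parting genes were those of TFEC, a transcription factor (-1.24), MBD5, a methyl-CpG binding domain protein (-1.08), IKZF2, a lymphoid transcription factor whose bright probe sets disagree (-1.07), KCNQ5, a potassium channel (-0.98), and EVI2B (-0.97).

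The aneugens raised more genes than they lowered. Their mean effect was higher for 288 genes (2.05%) and lower for 58 (0.414%), which became 359 and 189 with quantile normalization repeated, and 465 and 107 (572 in all) with the experiment as a block. Colcemid raised 134 genes (0.956%) and lowered 23 (0.164%), 157 in all (1.12%). Vincristine raised 61 (0.435%) and lowered 14 (0.0999%), 75 in all (0.535%). MMS raised 2467 (17.6%) and lowered 2161 (15.4%), 4628 in all (33%), and EMS raised 850 (6.06%) and lowered 640 (4.57%), 1490 in all (10.6%). With the block these were 293 for colcemid and 174 for vincristine. The 61 higher and 14 lower genes of vincristine became 65 and 55 with quantile normalization repeated. Single experiments bear on these counts. The aneugen mean was called for 177 genes without experiment 3 of colcemid, 229 without its experiment 2 and 202 without experiment 3 of vincristine. Colcemid was called for 47 without its experiment 3, and vincristine for 23 without its own, 11 higher and 12 lower, with no excess of higher genes. EMS was called for 827 to 884 genes without any 1 of its experiments.

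A gene was said to part the classes if it was called in the class difference and, with the same sign, in all 4 differences of a single clastogen minus a single aneugen. Those pairs alone were called for 23% of genes (MMS minus colcemid), 23.2% (MMS minus vincristine), 4.59% (EMS minus colcemid) and 5.29% (EMS minus vincristine). By the full rule 209 genes (1.49%) parted the classes upward and 223 (1.59%) downward, 432 in all (3.08%). Of the upward ones, 202 were called in MMS and in EMS, and 10 in either aneugen. Their median effects were 0.55 for MMS, 0.35 for EMS, -0.01 for colcemid and 0 for vincristine. Of the downward ones, 197 were called in both clastogens and 24 in either aneugen, with median effects of -0.53, -0.26, 0.06 and 0.08. With the experiment as a block 701 genes parted the classes, all of the 432 among them, and without experiment 1 of EMS 274 did.

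**Figure D1:**
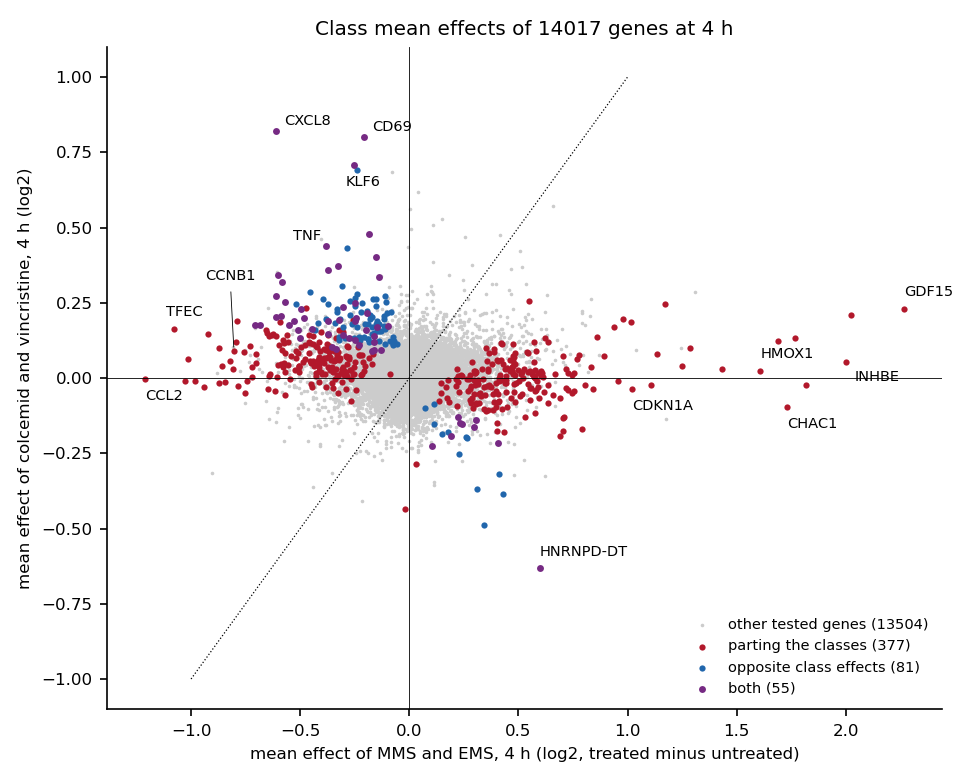
Each point is a gene, with the mean effect of MMS and EMS on the horizontal axis and the mean effect of colcemid and vincristine on the vertical axis, both log2 of treated over untreated at 4 h, and the dotted line marks equal effects. Most called genes lie along the horizontal axis: GDF15 stands at the far right and CCL2 at the far left, while CXCL8, CD69 and KLF6 stand high on the vertical axis and HNRNPD-DT low.

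The sets differed before any treatment. Between the untreated arrays of the clastogen sets and those of the aneugen sets 6340 genes (45.2%) were called, 3552 higher (25.3%) and 2788 lower (19.9%), or 3131 and 3699 with quantile normalization repeated. Each effect is taken within a set, which subtracts this difference, but a high or low starting level remains. Of the genes that parted the classes, 132 of the 209 and 152 of the 223 differed between untreated sets. Kept to genes not called there, 148 parted them, 77 upward and 71 downward, although a gene that is not called may still differ. Array medians lay between 6.137 and 6.213. Arrays of a group correlated at 0.99484 to 0.99873 over the tested genes, and arrays of different groups at 0.97545 to 0.99833. ACTB signal at the 3′ end minus that at the 5′ end, a measure of RNA integrity and labelling, was 0.915 ± 0.104 (SD, n = 3) after MMS and 0.837 ± 0.0725 in its untreated arrays. It was 0.287 to 0.418 in the other groups, and its class difference was 0.0152.

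The B cell markers MS4A1, CD79A, CD79B and PAX5 had mean signals of 8.69 to 11.8, above 6.186, the signal limit of the gene filter. That limit is the median of the mean signals of all probe sets and does not mark detection. The log2 of the mean signal over the B cell list was 10.6 to 10.7 in the clastogen groups, 10.9 to 11.1 in the aneugen groups and 10.7 to 11 untreated. PAX5 was the 1 member called, with a class difference of -0.39. Some markers of T and NK cells (6 of 12), monocytes and granulocytes (4 of 11), epithelium and fibroblasts (6 of 11) and red blood cells (3 of 5) had a mean signal over the limit. That level was 6.04 to 6.4 after the clastogens and 6.39 to 6.53 after the aneugens for T and NK cells, 6.06 to 6.18 and 6.19 to 6.39 for monocytes and granulocytes, 6.71 to 6.88 and 7.03 to 7.14 for epithelium and fibroblasts, and 7.47 to 7.72 and 7.51 to 7.62 for red blood cells. Of the 24 tested genes of these 4 lists, limma called 0 in the class difference and 1 passed an unadjusted p under 0.05. CDH1, an epithelial adhesion gene, was called (-0.272) with the experiment as a block (adjusted p = 0.0325), with only the 24 arrays (0.00166) and, at -0.192, with the mean of probe sets (0.0324).

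Genes that p53 induces were higher after both clastogens, and few of them were called after the aneugens. Of 44 tested p53 targets, 33 had a higher class difference, 23 parted the classes and the median was 0.39, against 0 for all tested genes. MMS raised 33 and lowered 1, EMS raised 36, colcemid raised 1 (FAS) and vincristine raised 1 (TNFRSF10B). The aneugen mean was higher for 5 of the 44, against 2.05% of all tested genes. These were GDF15, ANKRA2, FAS, DRAM1 and TNFRSF10B, by 0.12 to 0.23. At an unadjusted p under 0.05, 10 were higher and 0 lower in the aneugen mean. Colcemid had 4 higher and 0 lower by that measure, and vincristine 13 and 1. Of all 14017 tested genes, 1574, 1014 and 1128 passed it in either direction. The gene with the largest class difference of all that parted the classes was GDF15 (chromosome 19), a secreted stress cytokine of the TGF-beta family. Its log2 signal in the 3 untreated MMS arrays was 8.48, 8.42 and 8.46, and after MMS it was 10.94, 10.82 and 10.86. In the EMS set it went from 8.59, 8.57 and 8.47 to 10.73, 10.64 and 10.61. In the colcemid set it went from 8.48, 8.32 and 8.42 to 8.67, 8.49 and 8.51, and in the vincristine set from 8.30, 8.13 and 8.12 to 8.62, 8.43 and 8.44. Treated arrays lay above untreated ones in all sets, far above in the clastogen sets and by a narrow gap in the aneugen sets. The effects were 2.42 for MMS and 2.11 for EMS, each with an SE of 0.081, and 0.15 and 0.31 for colcemid and vincristine, neither of which passed the test. The class difference was 2.04 ± 0.081 (SE, 4.1-fold, adjusted p = 1.5e-32). That is the value of the brightest of its 3 probe sets (mean signal 9.53). The dimmer ones, at 6.05 and 6.3, had class differences of 0.22 and 0.15.

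CDKN1A (chromosome 6) had the more even response. Its signal was 11.07, 10.99 and 11.07 untreated and 12.21, 12.20 and 12.19 after MMS, and 11.33, 11.33 and 11.35 untreated and 12.22, 12.23 and 12.22 after EMS. After colcemid it was 11, 10.97 and 11.12 against 11.10, 10.99 and 11.05 untreated, and after vincristine 11.05, 10.98 and 11.03 against 11.12, 11.06 and 11.06. All 6 clastogen arrays lay above all other arrays, treated and untreated arrays of colcemid overlapped, and those of vincristine lay just below their untreated arrays. Its class difference was 1.06 ± 0.042 (adjusted p = 9e-33). SESN2, a sensor of leucine and stress that restrains growth signalling, had a class difference of 1.40, and SERTAD1, a regulator of cyclin-dependent kinase activity, of 1.18. PPM1D, the phosphatase that switches the p53 response off, stood at 1.05 and TP53INP1 at 0.77. PHLDA3, a repressor of AKT signalling, was at 0.75 and was the 1 upward parting gene with a significantly larger effect of EMS (0.83) than of MMS (0.61). MDM2, the ubiquitin ligase that degrades p53, was called at 0.31 ± 0.073 (adjusted p = 0.000653) but did not pass in all 4 chemical pairs. Its 10 probe sets ranged from 0 to 1.37, and the value given is that of the brightest. BAX, a pore-forming killer protein, stood at 0.00 and FAS, a death receptor raised by MMS, EMS and colcemid alike, at 0.06, and neither passed. TNFRSF10D, a decoy receptor of the death ligand TRAIL, stands outside the list and had a class difference of 1.63, with 2.30 for MMS and 1.23 for EMS.

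Repair genes that p53 controls parted the classes as well. XPC, which finds distorted DNA in nucleotide excision repair, had a class difference of 0.60, DDB2, its partner on chromatin, of 0.41, and POLH, a polymerase that copies past lesions, of 0.39. These were the 3 called of the 15 tested genes of nucleotide excision repair, and all 3 are in the p53 list as well. Among all tested genes, 10.9% were higher and 12.7% lower, which is the measure for the repair lists here. In base excision repair 5 of 22 were higher and 3 lower, among them UNG, which removes uracil (0.32), LIG3, a DNA ligase (-0.34), and TDG, a thymine glycosylase (-0.26). OGG1, which removes oxidised guanine, was at 0.66, but its probe sets disagree: they ranged from -0.09 to 0.66. The exonuclease EXO1 (0.43) and MSH6 (0.24) were the 2 called of 5 mismatch repair genes. In the Fanconi and homologous recombination list 6 of 22 were higher and 1 lower, with XRCC2, PALB2, FANCE and RAD54L between 0.24 and 0.34.

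Targets of ATF4 formed the most one-sided group of higher genes. Of 34 tested, 29 had a higher class difference, 18 parted the classes and the median was 0.50. MMS raised 30 and EMS 28, while colcemid and vincristine raised 1 each. The aneugen mean was higher for 3 of the 34, against 2.05% of all tested genes. An unadjusted p under 0.05 was reached by 9 higher and 1 lower in the aneugen mean. For colcemid these numbers were 3 and 0, and for vincristine 7 and 0. CHAC1, which breaks down glutathione, was measured at 7.19, 7.11 and 7.10 untreated and 9.20, 9.17 and 9.31 after MMS, and at 7.54, 7.49 and 7.47 untreated and 8.96, 8.91 and 8.76 after EMS. After colcemid it was 7.53, 7.49 and 7.68 against 7.59, 7.66 and 7.70 untreated, and after vincristine 7.54, 7.49 and 7.59 against 7.54, 7.62 and 7.77. The clastogen arrays stood above all others, and the aneugen arrays overlapped with their untreated arrays. The class difference was 1.83 ± 0.059 (adjusted p = 5.56e-38).

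INHBE, a secreted activin subunit, had a class difference of 1.95 ± 0.072 with effects of 2.68 for MMS, 1.33 for EMS, 0.05 for colcemid and 0.06 for vincristine. STC2, a secreted glycoprotein, followed at 1.84 ± 0.078. ATF3, a transcription factor of the same family as ATF4, was at 1.81 ± 0.087, with 2.45 for MMS, 1.60 for EMS, 0.17 for colcemid and 0.25 for vincristine. CTH, which makes cysteine from cystathionine, stood at 1.57, and CEBPB, a partner of ATF4 on DNA, at 1.21. DDIT3, which encodes the stress factor CHOP, had a class difference of 1.13. ATF4 itself stood at 0.53 and ASNS, asparagine synthetase, at 0.71. The element TGATGNAA, searched on both strands in the 250 bases before and 50 after the start, was in the promoters of 5 of the 17 ATF4 targets with a promoter that parted the classes (29.4%), in 6 of the 29 of the whole tested list (20.7%), and in 2.07% of the 11160 tested genes with one.

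The unfolded protein response differed from this group. Of its 19 tested genes 5 were higher and 1 lower, with a median of 0. XBP1, a transcription factor of that response, had effects of 0.85 for MMS and 0.32 for EMS, and DNAJB9, a chaperone of the endoplasmic reticulum, 1.04 and 0.25. HERPUD1, which helps to clear unfolded protein, was called in MMS (0.61) and not in EMS (0.09).

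**Figure D2:**
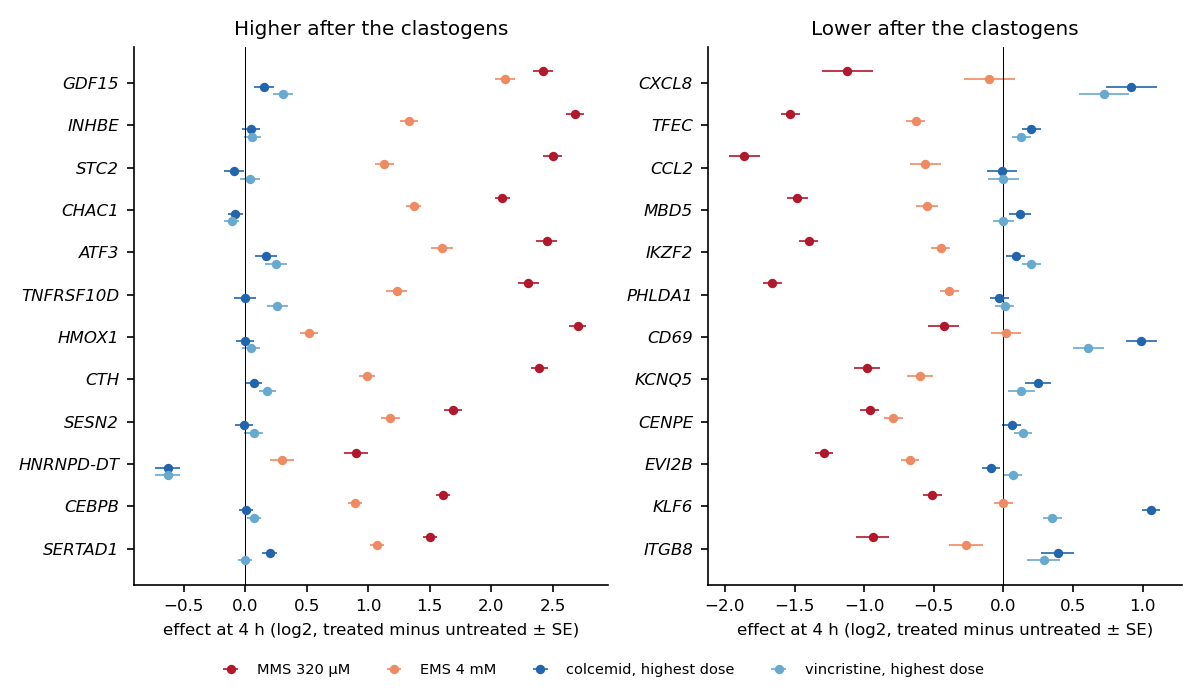
Effects at 4 h (log2 of treated over untreated, ± SE, 3 arrays a group) of each chemical on the 12 genes that parted the classes most in each direction. On the left the aneugen points of all genes but HNRNPD-DT lie between -0.11 and 0.31 and the clastogen points to the right of them, and on the right CXCL8, CD69 and KLF6 have aneugen points well above 0.

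Oxidant and protein damage genes were raised chiefly by MMS. Of 22 tested NRF2 and thiol defence genes, 14 were higher and 1, the drug exporter ABCC1 (-0.44), lower. MMS raised 16 of them and EMS 9. HMOX1 (chromosome 22), the enzyme that degrades haem, was at 8.29, 8.32 and 8.08 untreated and 10.95, 10.84 and 10.99 after MMS. In the EMS set it went from 8.31, 8.46 and 8.2 to 8.91, 8.78 and 8.83. The colcemid arrays (8.62, 8.70 and 8.68) overlapped with their untreated arrays (8.67, 8.64 and 8.69), and so did those of vincristine (8.65, 8.54 and 8.64 against 8.48, 8.64 and 8.56). The effect was 2.70 for MMS and 0.52 for EMS. SRXN1, which repairs oxidised peroxiredoxins, stood at 0.72 in the class difference and SLC7A11, the cystine transporter, at 0.55.

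Of 22 heat shock and chaperone genes, 8 were higher, and limma called 0 of them in all 4 chemical pairs. MMS raised 12 and EMS 6. DNAJB4, a co-chaperone, rose by 1.93 after MMS and 0.69 after EMS, and its values for colcemid and vincristine were 0.29 each, not called singly but called in the aneugen mean. HSPA6, an inducible member of the HSP70 family, rose by 1.89 after MMS and stood at 0.19 after EMS. BAG3, which guides chaperones to autophagy, rose by 1.39 after MMS and by 0.34 after EMS. Untreated means of BAG3 were 9.45 (MMS set), 9.46 (EMS), 8.43 (colcemid) and 8.49 (vincristine). Those of DNAJB4 were 7.95, 7.57, 6.52 and 6.58 in the same order, and those of HSPA6 were close, 7.01 to 7.08. Of the 8 tested metallothionein and zinc genes only the zinc exporter SLC30A1 was called, with a class difference of 0.78 and effects of 1.08 for MMS and 0.88 for EMS.

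Genes of mitosis were lower after both clastogens, and the spindle poisons did not lower them at this time. Of 58 tested genes of the G2 and M phases, 45 had a lower class difference, 31 parted the classes downward and the median was -0.31. MMS lowered 43 and EMS 37. Limma called 0 in colcemid and 1, the spindle checkpoint kinase TTK, upward in vincristine; at an unadjusted p under 0.05 there were 8 higher for colcemid and 15 higher for vincristine. In whole cultures, fewer cells in these phases and less of the RNAs per cell cannot be told apart. CCNB1, the cyclin that starts mitosis, was at 11.61, 11.64 and 11.62 untreated and 10.57, 10.73 and 10.62 after MMS, and went from 11.68, 11.65 and 11.54 to 10.99, 11.06 and 10.94 after EMS. After colcemid it was 11.81, 11.95 and 11.84 against 11.73, 11.88 and 11.73 untreated, and after vincristine 11.78, 11.92 and 11.77 against 11.72, 11.82 and 11.66. The 6 clastogen arrays were lower than all others, and in the aneugen sets treated and untreated arrays overlapped, although within experiments all 6 aneugen differences were above 0 (0.05 to 0.12). The class difference was -0.89 ± 0.048 (1.86-fold lower, adjusted p = 2.6e-25).

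CENPE, a kinesin that attaches chromosomes to the spindle, led the list with -0.97 ± 0.067, from effects of -0.96 for MMS and -0.79 for EMS. PSRC1, a microtubule regulator, stood at -0.91, AURKA, a spindle pole kinase, at -0.78, KIF20A, a kinesin of cytokinesis, at -0.76, PIF1 at -0.73, ASPM at -0.69, KIF23 at -0.60, DEPDC1 at -0.55 and PLK1 at -0.55. CDK1, the kinase that CCNB1 activates, was called at only -0.14 (adjusted p = 0.0282), and BIRC5, which encodes survivin, was not called (0.04). The aneugen mean was called upward for 5 of the 58, against 2.05% of all genes, and 20 were higher and 0 lower at an unadjusted p under 0.05. These 5 are KIF14, ANLN, TTK, CKS2 and CKAP2, by 0.09 to 0.20. The CHR core TTTGAA was found in 19 of the 26 promoters of list members that parted the classes (73.1%), in 50 of 192 promoters of all downward parting genes (26%), in 6.94% of those of the upward ones and in 10.6% of all. The CCAAT box, which often lies near it, was in 84.6% of the first set and 36.3% of all promoters. Over the whole tested mitosis list the shares were similar, 66% (33 of 50) for the CHR core and 80% for the CCAAT box. A match is a string of letters in this window and not a measured site.

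**Figure D3:**
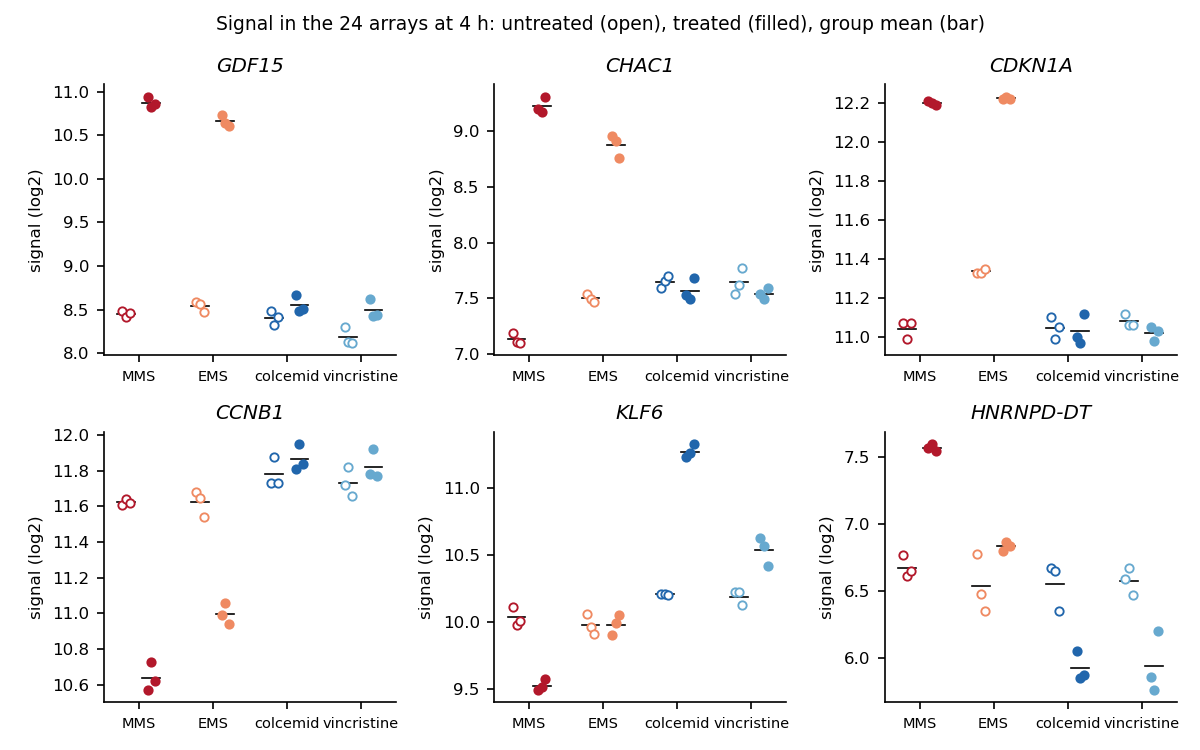
Log2 signal of 6 genes in each of the 24 arrays, by chemical, with open points for untreated and filled points for treated arrays and a bar at each group's mean of 3. GDF15, CHAC1 and CDKN1A step up and CCNB1 steps down in the MMS and EMS sets, KLF6 steps up after colcemid and vincristine and down after MMS, and HNRNPD-DT moves in opposite directions. The vertical axes differ between genes and do not start at 0.

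Genes of DNA replication and the G1/S transition were higher after the clastogens. Of 48 tested, 36 were higher, 1 (POLA1, -0.23) was lower and 12 parted the classes, with a median of 0.20. MMS raised 38 and EMS 28, and limma called 0 in colcemid and 0 in vincristine, with 1 and 5 at an unadjusted p under 0.05. CDC6, which loads the replicative helicase, stood at 0.66 ± 0.051, from untreated levels of 9.99, 10.06 and 10.03 to 10.88, 10.84 and 10.88 after MMS, and from 9.97, 9.92 and 9.81 to 10.36, 10.30 and 10.34 after EMS. DTL, a ubiquitin ligase adaptor of S phase, stood at 0.59, CDT1, the partner of CDC6, at 0.52, ORC1 at 0.47 and cyclin E (CCNE1) at 0.42. Replication-dependent histones did not share this direction: 1 of 22 was higher and 3, the linker histones H1-2, H1-3 and H1-4, were lower.

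A smaller group of genes moved in opposite directions, called upward in the aneugen mean and downward in the clastogen mean. There were 115 such genes (0.82%), against 21 (0.15%) the other way round, and 151 and 66 with quantile normalization repeated. There were 136 in all (0.97%), and 227 with the block. Without experiment 3 of colcemid there were 71 and without experiment 3 of vincristine 88. Among genes not called between the untreated clastogen and aneugen sets, which does not show equal levels, 41 were left. Median effects of the 115 were -0.39 for MMS, -0.07 for EMS, 0.19 for colcemid and 0.17 for vincristine. EMS alone was called downward for 25 of them and upward for 1, so the fall rested largely on MMS.

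Targets of NF-kappaB, the transcription factor of inflammatory signalling, were prominent on this side. Of 28 tested, 19 had a lower class difference, 4 parted the classes and 7 were among the 115, with a median of -0.22. Limma called 0 higher, and 0 passed upward at an unadjusted p under 0.05. MMS lowered 18 and raised 1, EMS lowered 2 and raised 3, colcemid raised 8 and vincristine raised 4. CXCL8, the neutrophil chemokine interleukin 8, had the lowest class difference of all parting genes, -1.43 ± 0.18 (adjusted p = 1.84e-09). Its signal went from 10.26, 10.24 and 10.74 to 9.23, 9.08 and 9.57 with MMS, and from 10.20, 10.07 and 10.56 to 10.19, 9.94 and 10.39 with EMS. With colcemid it went from 8.22, 7.61 and 8.15 to 9.21, 8.50 and 9.02, and with vincristine from 8.08, 7.62 and 7.81 to 8.82, 8.17 and 8.68. The untreated clastogen sets were 2.43 above the untreated aneugen sets, so that treated cultures of the aneugen sets still lay below all arrays of the EMS set. The part of this gap in the opposite effects was not tested.

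TNF, an inflammatory cytokine, showed the same signs with a smaller untreated gap of 0.56. It was 9.41, 9.41 and 9.47 untreated and 8.71, 8.77 and 8.86 after MMS, and 9.64, 9.62 and 9.61 untreated and 9.50, 9.49 and 9.53 after EMS. It was 9.10, 9.05 and 8.93 untreated and 9.51, 9.52 and 9.53 after colcemid, and 8.99, 8.91 and 8.81 untreated and 9.31, 9.31 and 9.24 after vincristine. Treated arrays lay below untreated ones in both clastogen sets, though EMS was not called (-0.12), and above them in both aneugen sets. REL, an NF-kappaB subunit, stood at -0.61 for MMS, -0.04 for EMS and 0.37 for each aneugen. NFKBIA, the inhibitor that NF-kappaB itself induces, had a class difference of -0.48. IL6 stood at -0.88, with an untreated gap of 2.36 that is as wide as that of CXCL8. CCL2, a monocyte chemokine, parted the classes by its fall alone, with -1.86 for MMS, -0.56 for EMS, -0.01 for colcemid and 0.00 for vincristine. Outside the list, CD69, an early activation antigen of lymphocytes, had effects of -0.43, 0.02, 0.99 and 0.61, and the 6 aneugen experiments (0.50 to 1.15) lay above the 6 clastogen ones (-0.46 to 0.08). Its untreated sets did not differ by the test (0.15, adjusted p = 0.134). ITGB8, an integrin subunit, RAB11FIP1, a vesicle transport adaptor, and ST8SIA4, a sialic acid transferase, had class differences of -0.94, -0.73 and -0.90.

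Immediate early genes, which cells switch on within minutes of a stimulus, were split. Of 31 tested, 5 had a higher and 10 a lower class difference, with a median of -0.01. Colcemid raised 10 and vincristine 6, MMS raised 13 and lowered 8, and EMS raised 10 and lowered 2. KLF6, a zinc finger transcription factor on chromosome 10, had untreated levels of 10.21, 10.21 and 10.20 and reached 11.23, 11.26 and 11.33 with colcemid. With vincristine it went from 10.22, 10.22 and 10.13 to 10.63, 10.57 and 10.42. With MMS it went from 10.11, 9.98 and 10.01 to 9.49, 9.51 and 9.57, and with EMS from 10.06, 9.96 and 9.91 to 9.90, 9.99 and 10.05. It rose in both aneugens, fell in MMS and overlapped with its untreated arrays in EMS, for a class difference of -0.96 ± 0.068 (adjusted p = 2.12e-19).

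JUN, a subunit of AP-1, rose in both classes, after colcemid (0.58), vincristine (0.37), MMS (0.58) and EMS (0.25). The phosphatases DUSP2 (-0.53), DUSP4 (-0.38) and DUSP5 (-0.32), which curb MAP kinases, and IER3 (-0.43) had lower class differences. MYC fell after MMS (-1.05) and EMS (-0.26), with -0.02 for colcemid and -0.13 for vincristine. PHLDA1, a regulator of cell survival, fell after MMS (-1.66) and EMS (-0.39) and stood at -0.03 and 0.01 in the aneugens. Its 5 bright probe sets disagreed, with class differences of -1.02, -0.92, -0.06, -0.1 and 0.1, and the values given are those of the brightest. KLF10 (0.62) and the matrix protein gene CCN1 (0.54) were higher, and EGR1, a classic early gene, was not called (0.21 ± 0.13, adjusted p = 0.272).

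Several tubulin genes fell after the aneugens, and some of the same genes fell less after the clastogens. Cells are known to adjust the stability of tubulin mRNA to the amount of free tubulin. Of 13 tested, 8 were lower in the aneugen mean: TUBB2A, TUBB3, TUBB4B, TUBB, TUBA4A, TUBA1A, TUBA1B and TUBA1C, by 0.07 to 0.29 on the log2 scale. Colcemid and vincristine lowered 5 each, and limma called 0 higher in either, also at an unadjusted p under 0.05. TUBA4A parted the classes from the aneugen side. Its signal was 12.03, 12.04 and 12.02 untreated and 11.72, 11.75 and 11.63 after colcemid, and 12.03, 12.02 and 11.97 untreated and 11.72, 11.78 and 11.78 after vincristine. In the clastogen sets it lay between 11.88 and 12.11 in all 12 arrays, with effects of 0.09 and -0.03. TUBA1A, higher after MMS (0.26) and EMS (0.18) and lower after vincristine (-0.24), was at -0.02 after colcemid. The clastogen mean lowered 5 of the 13 (TUBB, TUBB2A, TUBB3, TUBB4B and TUBD1) and MMS alone lowered 3 (TUBB, TUBB2A and TUBB3). TUBB3 was below its untreated array in all 6 clastogen experiments (-0.20 to -0.08) and all 6 aneugen ones (-0.32 to -0.25), with a class difference of 0.15. For TUBB the class difference did not pass (0.05, adjusted p = 0.466). In the class difference 5 of the 13 were higher and 0 lower, against 10.9% and 12.7% of all tested genes. TUBE1, at 0.57, differed from the clastogen side. Its single experiments were 0.84 to 0.91 after MMS, 0.18 to 0.51 after EMS and -0.14 to 0.17 after the aneugens. The coding sequences of tubulin paralogs are close, and array probes may not separate them fully. Of 34 genes of tubulin folding and microtubule binding, 2 were higher and 6 lower, near the 10.9% and 12.7% of all tested genes. CLASP2 stood at -0.33 and CKAP5 at -0.31. MAP4 (-0.33) and CLASP1 (-0.32) did not pass with the mean of probe sets (-0.107 and -0.14), and 2 bright probe sets of MAP4 have the opposite sign.

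The 21 genes called upward in the clastogen mean and downward in the aneugen mean held many noncoding transcripts. By their names (antisense, divergent, LINC, LOC, small RNA and similar), 10 of the 21 (47.6%) were of this kind, against 914 (6.52%) of all tested genes, and by the same names the 115 genes of opposite sign held 0. HNRNPD-DT, a transcript that starts divergently beside HNRNPD on chromosome 4, parted the classes by 1.23 ± 0.10 (adjusted p = 6.63e-16). Its signal went from 6.77, 6.61 and 6.65 to 7.57, 7.60 and 7.55 with MMS and from 6.78, 6.48 and 6.35 to 6.80, 6.87 and 6.84 with EMS. With colcemid it fell from 6.67, 6.65 and 6.35 to 6.05, 5.85 and 5.87, and with vincristine from 6.59, 6.67 and 6.47 to 5.86, 5.76 and 6.2, that is, to about or below the signal limit of the filter. EMS was not called (0.30, adjusted p = 0.0524).

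LINC00115 (0.82), ZNF674-AS1 (0.73), DNAJC3-DT (0.68), the small Cajal body RNA SCARNA15 (0.48) and DYNLT2, which encodes a dynein light chain (0.83), followed, with limits of signal and spread. LINC00115 lay under the signal limit of the filter in all 24 arrays (4.23 to 5.77). In the aneugen sets DNAJC3-DT (5.15 to 5.89) and DYNLT2 (4.94 to 5.88) lay under it in all arrays. ZNF674-AS1 was at 5.45 to 6.31 there, above the limit only in untreated array 2 of vincristine. The falls of LINC00115, DNAJC3-DT, DYNLT2 and ZNF674-AS1 in the aneugen sets are therefore differences between signals near or under that limit. SCARNA15 lay above it there (7.71 to 8.37). The EMS values of DNAJC3-DT (-0.03) and DYNLT2 (0.01) were near 0 and the single experiments of these 2 and of SCARNA15 overlapped between classes. SNHG19, a host gene of small nucleolar RNAs, parted the classes from the aneugen side, by -0.44 for colcemid and -0.43 for vincristine, against -0.03 for MMS and -0.01 for EMS. Over all 914 such transcripts 117 (12.8%) had a higher and 20 (2.19%) a lower class difference, against 10.9% and 12.7% of all tested genes.

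Other gene groups were mixed in direction or held few called genes, and several had a share of called genes above the 23.6% of all tested genes. Among B cell identity genes 6 of 22 were lower and 1 higher, led by EBF1, a transcription factor of B cell development, at -0.91 with -1.13 for MMS and -0.45 for EMS. BLNK, an adaptor of B cell receptor signalling, was the higher one (0.24). In the plasma cell list PRDM1, the repressor that drives plasma cell fate, was higher (0.51) and IRF4 lower (-0.39). Cholesterol synthesis had 5 of 17 lower, led by HMGCS1 (-0.78), though its untreated sets differed by 1.00. VEGFA (0.70) was higher and HK2 (-0.48) lower among 29 genes of glycolysis and hypoxia. BCL2A1 (-0.48), BCL2 (-0.28) and CFLAR (-0.21), which protect from cell death, had lower class differences, that of BCL2 from a rise in the aneugen mean (0.27) alone. PMAIP1, which encodes the killer protein NOXA, was higher (0.30); probe sets of BCL2 and CFLAR disagreed in sign, and with their mean neither passed (-0.071 and -0.078). The alpha-arrestin ARRDC3 (0.88) and TXNIP (0.39), which restrain glucose uptake, were higher. Interferon response genes had 3 of 20 higher, of which IFIT2 did not pass with only the 24 arrays, no filter, quantile normalization repeated or a trended variance, and IRF7 did not with no filter or quantile normalization repeated. Proteasome subunits had 2 of 27 higher and 2 lower, of which PSMD12 and PSMA5 turned to higher with the mean of probe sets. Of the 28 cytosolic ribosomal protein genes limma called 0, and 0 passed at an unadjusted p under 0.05. ACTB (-0.03) and GAPDH (0.00) did not differ by the test.

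**Figure D4:**
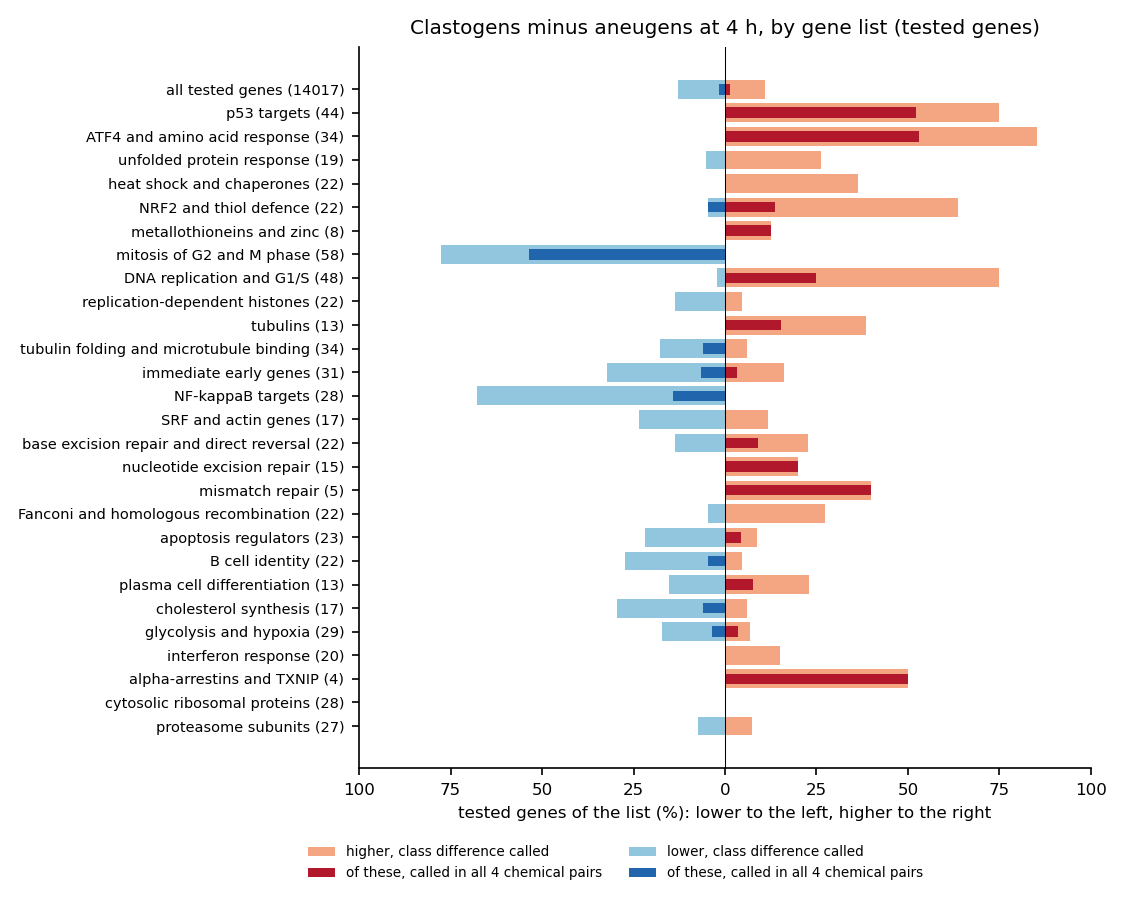
Share of the tested genes of each list (number in brackets) whose class difference at 4 h was called higher (right) or lower (left), with narrow dark bars for those called in all 4 chemical pairs. The p53, ATF4 and replication lists stand out to the right and the mitosis and NF-kappaB lists to the left of all tested genes, which reach 10.9% and 12.7%.

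The 2 clastogens differed in size. MMS and EMS effects differed for 1179 genes (8.41%), 522 higher (3.72%) and 657 lower (4.69%) with MMS, and 1812 with quantile normalization repeated. Of the genes that parted the classes, MMS moved 188 of the 209 and 209 of the 223 further than EMS did, and the difference was called for 90 and 119. With EMS as the only clastogen the class difference was called for 1027 genes, and with MMS as the only one for 3853. Effects of MMS and EMS were close for the p53 targets DDB2 (0.45 and 0.45) and PPM1D (1.17 and 1.09), and differed by 0.27 for CDKN1A (1.16 and 0.89). They were far apart for HMOX1 (2.70 and 0.52), HSPA6 (1.89 and 0.19) and the lens crystallin gene CRYGS (2.02 and 0.47). The dose of either agent that would match the other is not known, so the difference belongs to these doses. The structures differ by a methyl against an ethyl group.

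The 2 aneugens differed for 8 genes (0.0571%), all higher with colcemid, and 21 with quantile normalization repeated; 471 passed an unadjusted p under 0.05. These are KLF6, RAB11FIP1, IFFO2, ANTXR2, JUND, PPP1R15A, TSC22D3 and CFAP69. ANTXR2, an anthrax toxin receptor, stood at 1.00 for colcemid and -0.01 for vincristine, and IFFO2, an intermediate filament family member, at 1.16 and 0.21. TSC22D3, the glucocorticoid-induced leucine zipper, stood at 0.95 and 0.20 and also rose after MMS (0.90), so that its class difference (0.09) was not called. The remaining genes were not shown to act alike: the median SE of a single aneugen's effect was 0.0742.

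At lower doses of all 4 chemicals the class difference had fewer calls, 1331 genes (9.5%; 4.36% higher, 5.14% lower) at the middle doses and 228 (1.63%; 0.663% higher, 0.963% lower) at the lowest. The share of higher genes among the 228 was 40.8%, and 52.2% with quantile normalization repeated. These comparisons use the same untreated arrays as the highest doses, so their values are set side by side only. GDF15 stood at 0.89, 1.42 and 2.04 (SE 0.081 each) at the lowest, middle and highest dose, CHAC1 at 0.49, 1.04 and 1.83, and CDKN1A at 0.56, 0.79 and 1.06. CCNB1 stood at -0.41, -0.59 and -0.89, and CENPE at -0.47, -0.67 and -0.97. KLF6 (-0.19, -0.33 and -0.96) and CD69 (-0.18, -0.36 and -1.01) were called at the middle and highest doses only. Of the 12 genes that parted the classes most upward, 11 were called at the lowest doses, and of the 12 downward, 6.

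**Figure D5:**
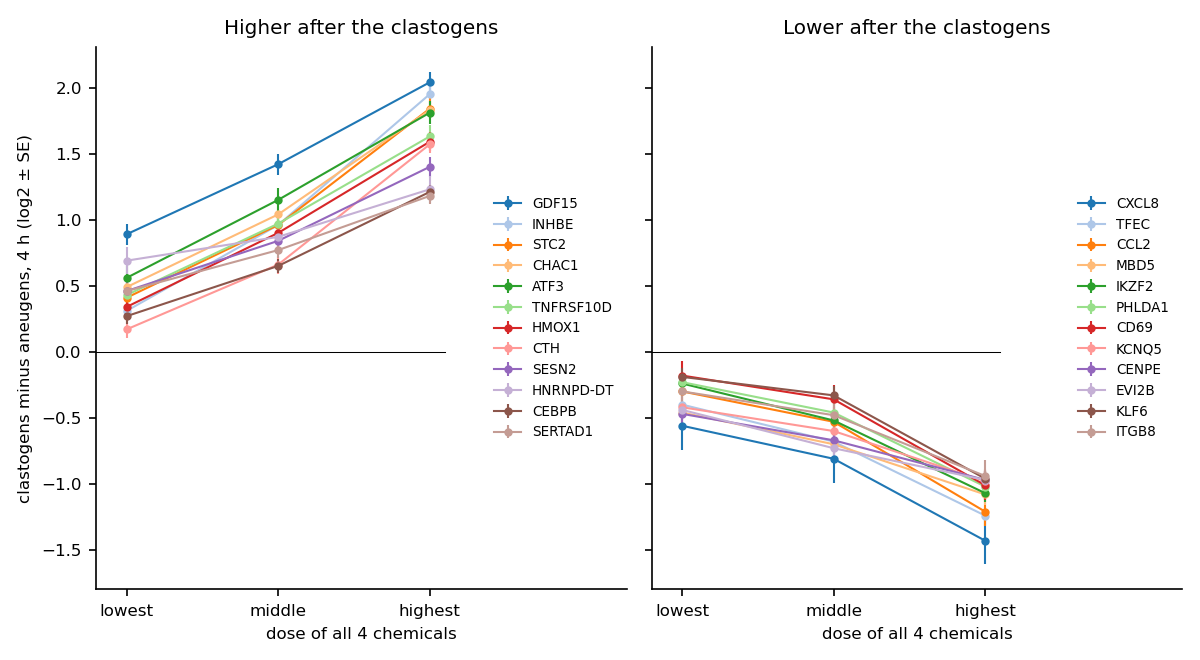
Class difference at 4 h (log2, ± SE) of the 12 genes that parted the classes most in each direction, with all 4 chemicals at their lowest, middle or highest dose; all 3 doses share the untreated arrays. Values run from 0.17 to 0.89 at the lowest and 1.18 to 2.04 at the highest doses on the left, and from -0.56 to -0.18 and -1.43 to -0.94 on the right.

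The arrays after 24 h share none with those of 4 h. There the class difference was called for 7659 genes (54.6%), 29.9% higher and 24.7% lower. Of the 209 upward genes, 191 (91.4%) were called in the same direction at 24 h and 8 in the opposite one, and of the 223 downward genes 181 (81.2%) and 20. The difference between times was itself called for 5936 genes (42.3%), 24.9% upward and 17.5% downward. GDF15 went from 2.04 to 3.31, HMOX1 from 1.59 to 2.86, DDB2 from 0.41 to 1.89 and CDC6 from 0.66 to 1.49. Replication genes were all 48 higher at 24 h, with a median of 0.73. The ATF4 targets did not keep their lead: CHAC1 went from 1.83 to 0.24, STC2 from 1.84 to 0.29, CTH from 1.57 to 0.26 and ASNS from 0.71 to -0.15, and the list's median went from 0.50 to 0.26. The mitosis list, lower for 45 of 58 at 4 h, was lower for 26 and higher for 22 at 24 h. CCNB1 went from -0.89 to -1.54, while UBE2C, a ubiquitin enzyme of mitotic exit, went from -0.30 to 0.95, CDK1 from -0.14 to 1.40 and FAM83D from -0.44 to 0.71. The NF-kappaB targets stayed on their side, 21 lower and 2 higher at 24 h, with TNF at -2.20 and IL6 at -2.58, and CD69 stood at -2.24.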

How the data were processed

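Expression arrays of total RNA from TK6 cells were used, each with 54675 probe sets (62 of them controls). The deposited values are the authors' log2 expression values, for which the submitters' processing notes name RMA; its version and the arrays it was run on together are not given in the sources used here. Labels do not say whether arrays came from separate cultures, so p-values measure the spread between these arrays. Their number limits the precision.

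Of the probe sets, 41091 named 1 gene symbol, 1801 several and 11721 none, and only the first were used. Each of 19775 genes was represented by its brightest probe set (10523 genes have several). Genes with 3 or more of the 120 arrays at 6.186 or above, the median of the mean signals of all probe sets, were tested, which left 14017; some of these lie under that limit in all 24 arrays compared here. The 96 arrays of the 4 chemicals were fitted in limma 3.58.1 (R 4.3.3) with 32 group means. Tests were two-sided and moderated, with Benjamini-Hochberg adjustment over the tested genes of each comparison, and an adjusted p below 0.05 counts as a call. The members and lists were chosen with earlier results of these data known, so no list was tested as a set. Lists were compiled from general knowledge and overlap in part.

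Named genes are the 12 highest and 12 lowest of those that parted the classes, 6 with opposite class effects each way, up to 4 called genes of each list (its largest uncalled one where under 2 were called), a panel (CDKN1A, MDM2, GDF15, ATF3, HMOX1, CCNB1, PLK1, TUBB, TUBA1A, EGR1, ACTB and GAPDH), and the largest differences within a class; 128 genes in all. Further list members and FAS, SNHG19, TSC22D3 and the 8 genes that differ between the aneugens were named after their values were seen. Of the 128, 78 have several probe sets, and in 14 a bright one has the opposite sign.

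Experiment numbers 1 to 3 in the labels were read as pairing treated with untreated arrays of a set. Deviations from the group means of same-numbered arrays correlated above 0.1 in 11 of 12 pairs. Alternatives were the experiment as a block, only the 24 arrays, no filter, a stricter filter (12 of the 24 arrays over the limit), the mean of probe sets, quantile normalization repeated, a trended and robust variance, and each array or experiment left out. Leaving out a chemical and keeping to genes not called between the untreated sets were added after seeing the data.

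In a test on simulated data, 100 of 14017 genes were changed by each size. Of class differences of 0.5 log2 units 94% were recovered (55% in all 4 pairs) and of 1 unit 100% (99%), with 6 false calls. The simulated noise was independent between arrays, without effects shared by an experiment or a set. These shares therefore do not measure the error in the real arrays. Promoters are RefSeq's, build GRCh38.p14, and 8 motifs were searched on both strands: TTTGAA (CHR), the CCAAT box, TGATGNAA (ATF4 element), TGACGTCA (CRE), TGANTCA (AP-1 site), GAANNTTC (heat shock element), TGACNNNGC (antioxidant element) and CACGTG (E-box); they are counted separately, so overlapping matches count for each. Figures used python 3.11.15, numpy 2.4.6, pandas 2.3.3 and matplotlib 3.10.9.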

Additional observations from a re-analysis of the deposited data

Results flagged for a closer look

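Within the clastogens, the effects of MMS and EMS differed for 1179 genes by the test of the difference itself. Among named genes with a class difference, MMS exceeded EMS by 2.18 log2 units for HMOX1, 1.71 for HSPA6, 1.55 for CRYGS, 1.40 for CTH, 1.37 for STC2, 1.35 for INHBE, 1.25 for DNAJB4, 1.07 for TNFRSF10D and 1.05 for BAG3. It lay below EMS by -1.31 for CCL2, -1.27 for PHLDA1, -1.02 for CXCL8 and -1.02 for IL6. The doses of the 2 agents are not matched.

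Within the aneugens, 8 genes differed. Colcemid exceeded vincristine by 1.01 for ANTXR2, 0.94 for IFFO2, 0.71 for KLF6 and 0.46 for RAB11FIP1.

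Between times, the class difference changed for 5936 genes. From 4 h to 24 h it moved by 2.35 for HSPA6 and 1.60 for EXO1, and by -1.70 for IL6, -1.67 for BCL2A1, -1.59 for CHAC1 and -1.55 for STC2.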

How the results depend on the processing

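The class difference was called for 2960 to 3304 genes when an array or experiment was left out, and its count stayed within 1.5 times of 3310 in the other fits described under the processing that kept all 4 chemicals. With EMS as the only clastogen it was 1027, with MMS 3853, with colcemid as the only aneugen 2469 and with vincristine 2599.

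Under the replicate block the counts were 572 for the aneugen mean, 293 for colcemid, 174 for vincristine, 701 for genes that part the classes and 227 for opposite class effects; the block moved no other count of calls by over 1.5 times. With the mean of probe sets they were 226 for the aneugen mean, 35 for vincristine and 82 for opposite effects. With quantile normalization repeated they were 548, 275 for colcemid, 120 for vincristine, 1812 for MMS against EMS, 21 for colcemid against vincristine, 756 for parting genes and 217 for opposite effects. Kept to genes not called between the untreated sets, 148 genes parted the classes and 41 had opposite effects.

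Leaving out an array or experiment gave 4124 to 4735 for the clastogen mean, 177 to 381 for the aneugen mean, 3695 to 4687 for MMS, 827 to 1586 for EMS, 47 to 169 for colcemid, 23 to 91 for vincristine, 813 to 1221 for MMS against EMS, 7 to 11 for colcemid against vincristine, 5649 to 6438 for the untreated sets, 7393 to 7925 for 24 h, 5586 to 6057 for 24 h against 4 h, 274 to 463 for parting genes and 71 to 143 for opposite effects. EMS alone was called for 859, 884 and 827 genes without its experiment 1, 2 and 3. Colcemid was called for 87 without experiment 1, 82 without experiment 2, 101 and 100 without treated arrays 1 and 2, and 100 without untreated array 3. Vincristine was called for 37 without experiment 1, 30 without experiment 2, 46 without treated array 3, and 49, 43 and 48 without untreated arrays 1, 2 and 3. The cause was not tested.

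Lists were followed over the 44 fits above with all 4 chemicals and all tested genes of the list. Fits of a single agent, or kept to genes not called between the untreated sets, are not among them. Over the 44 fits p53 targets had 31 to 34 higher, ATF4 targets 29 to 30 and replication genes 33 to 38. Mitosis genes had 41 to 46 lower and NF-kappaB targets 18 to 19. Among named genes, PSMD12 (0.094) and PSMA5 (0.125) turned from lower to higher with the mean of probe sets, where 7 others were no longer called: MAP4 (-0.107), CLASP1 (-0.14), SRF (-0.108), ACTN1 (-0.07), BCL2 (-0.071), CFLAR (-0.078) and SLC2A1 (-0.104). H1-4, IFIT2, IRF7, PSMA5, PSMB6 and PSMC2 were not called without the filter. The limits are bulk RNA, 3 arrays a group, untreated sets that differ, and unmatched doses.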
